A study of Bos taurus with 35 samples.

Results

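The first interval of a *post-mortem* series, from 0 h to 6 h after slaughter, was examined in *longissimus thoracis* (LT), the large muscle along the back of cattle. The comparison takes the 7 libraries labelled 6 h and the 7 labelled 0 h, which are 14 of the 35 libraries of the series, and pairs them by the animal number in their labels. It covers the 14630 genes with enough reads to be tested, of 27607 in the count table. The animals were 7 crossbred beef heifers (British × Continental) finished on barley and slaughtered at 525 to 635 kg. The labels give them no treatment, so that a group is defined by time alone. The 0 h core was taken 45 min after slaughter and therefore follows death and bleeding, and the 6 h core came from the same left side of the same carcass in the drip cooler. Every time point is another piece of muscle, so that a difference between 2 cores of an animal includes the difference between sites. The RNA was extracted from whole cores and sequenced after preparation with a stranded mRNA kit, and the deposited values are read counts per gene.

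Slaughter cuts off the blood supply and oxygen of muscle, while glycogen, ATP and the enzymes that make and degrade RNA are not lost at once. The level of a transcript in a *post-mortem* core is set by synthesis and by decay, which counts of RNA do not separate. Stress-inducible genes such as the GADD45 and AP-1 families respond within minutes to hours in living cells, targets of hypoxia-inducible factor respond to a lack of oxygen, and the small mitochondrial genome is transcribed by its own polymerase from long precursors that are cut into single mRNAs and tRNAs. In the present data few genes differed between 0 h and 6 h. Those that rose included GADD45B and JUNB, 3 hypoxia response genes, 3 genes of catecholamine synthesis and storage and 10 small nucleolar RNAs (snoRNAs), and those that fell included 8 mitochondrially encoded mRNAs and the endothelial transcription factors KLF2 and BCL6B. Of all genes tested, 0.349% rose and 0.185% fell by the rule given below. Members of these groups could be identified only if they differed from 0 h at some time point. Some of these calls, JUNB, SLC2A3, ADM, PENK, ND3 and BCL6B among them, were lost when single animals were left out.

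Total counts ranged from 21268791 to 65520943 at 0 h and from 20864347 to 64523593 at 6 h. The log2 ratio of the totals, 6 h over 0 h, was -0.23 ± 0.82 (SD, n = 7; exact two-sided sign flip test, p = 0.48). After removal of the mean of each time point, the 2 samples of an animal correlated with a median r of 0.727 over 7 pairs, against -0.142 over 42 pairs of different animals, given here as a description across genes. Highly abundant sarcomere transcripts marked the tissue as skeletal muscle: the 12 sarcomere genes identified summed to between 64964 and 74216 CPM (counts scaled to a common library size) at 0 h and to between 68259 and 82190 CPM at 6 h. These values are normalized by the TMM method of edgeR and are not divided by gene length, so they compare samples and not genes. Each 0 h library correlated best with the 6 h library of its own animal.

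A gene was called differentially expressed (DE) at a false discovery rate (FDR) below 0.05 in edgeR's quasi-likelihood test together with a fold change above 1.5. By this rule 78 genes (0.533% of those tested) were DE at 6 h, 51 of them upregulated (0.349%) and 27 downregulated (0.185%). The median log2 fold change of all genes tested was 0.00, and 90% of genes lay between -0.25 and 0.31 around it. Upregulated genes had a median log2 fold change of 0.998 and 25 of the 51 had a fitted fold change above 2, whereas the median among downregulated genes was -0.88. Most upregulated genes were scarce: 28 of the 51 had a mean under 1 CPM at 0 h and 9 had no read in at least 1 library at 0 h. Downregulated genes were spread over the range of levels, with 11 of 27 over 10 CPM at 0 h. The filter on low counts bears on this contrast. A gene with few reads at 0 h was tested only if it had enough at other time points, which can favour scarce genes that rise. Of all 14630 genes tested, 12167 had a mean of at least 1 CPM over the 2 time points. Within animals, 62 of the 78 moved in the same direction in all 7, against 8.64% of all genes tested, and in 13 the ranges of the 2 time points did not overlap, against 0.226%. The call itself used the same values, so these shares describe the genes and do not test them. By the FDR alone 187 genes were higher (1.28%) and 131 lower (0.895%), counts that ran from 45 to 291 and from 39 to 183 with single animals left out. Without the animal as a block, 10 genes were upregulated and 9 downregulated. Leaving out animal 107 left 20 upregulated and 16 downregulated genes, and leaving out animal 101 left 26 upregulated. A core holds several cell types, and in such bulk samples fewer cells of a type and less RNA per cell cannot be told apart.

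**Figure D1:**
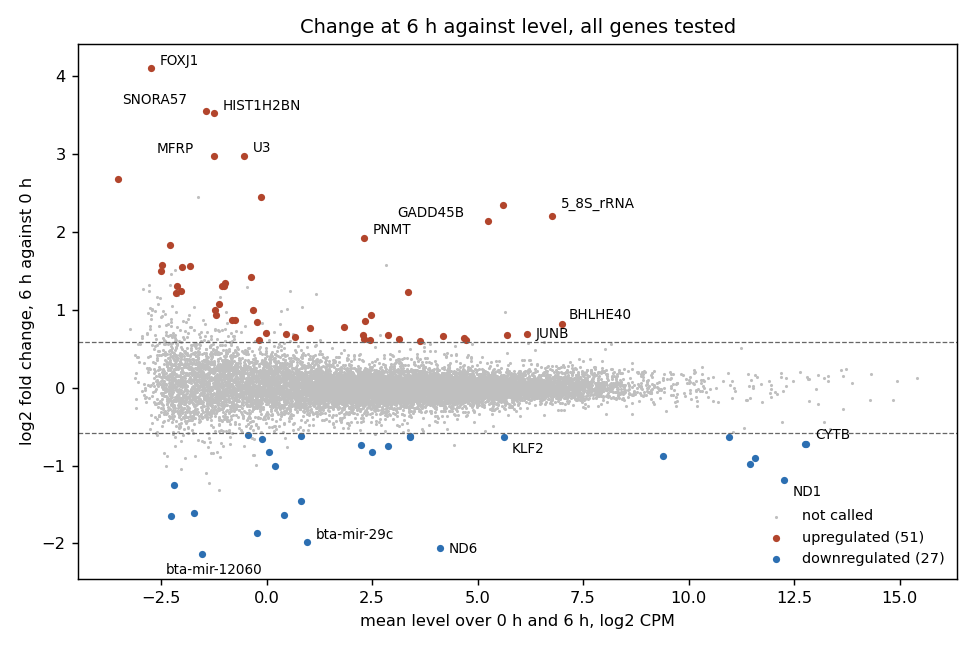
Log2 fold change at 6 h against 0 h (y axis) by mean level over both time points in log2 CPM (x axis), for all 14630 genes tested. Grey points were not called, red points are the 51 upregulated and blue points the 27 downregulated genes, and dashed lines mark a fold change of 1.5. Red points gather at low levels on the left, while blue points include the abundant mitochondrial mRNAs on the right.

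GADD45B, one of 3 related stress-inducible proteins that act in growth arrest, DNA repair and MAP kinase signalling, was the protein coding gene with the smallest FDR among those upregulated. GADD45B lay between 10.03 and 18.1 CPM at 0 h (median 13.02) and between 37.9 and 88.3 CPM at 6 h (median 62.5). Every 6 h sample exceeded every 0 h sample, and the rise was larger than the spread between animals (log2 fold change 2.14 ± 0.25, FDR = 3.78e-06; here and below ± is the standard error of a fold change, or the SD over 7 animals of a level). Within animals the log2 difference ran from 1.32 in animal 103 to 2.79 in animal 206. Its relative GADD45G was upregulated too. GADD45G lay between 16.9 and 54.4 CPM at 0 h (median 45.2) and between 28.9 and 93.4 CPM at 6 h (median 69.8), with overlapping ranges but a higher level in 7 of 7 animals (log2 fold change 0.68 ± 0.14, FDR = 0.00636); the call was lost when animal 202 was left out. The list of GADD45 and p53 target genes held 4 identified members, of which these were the 2 called. The 4, of 17 on the list, were at hand because they were DE at some time point. Of all genes with a biotype 2.14% were called. MDM2, the ubiquitin ligase that p53 induces, had 61.5 ± 7.71 CPM at 0 h and 58.8 ± 5.06 CPM at 6 h (log2 fold change -0.07 ± 0.16, FDR = 0.897), and ZMAT3 was not called either.

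Among immediate early genes, the transcription factor genes that answer a stimulus without new protein synthesis, 7 were identified, 1 was upregulated and 1 downregulated. These 7, of 35 on the list, were at hand because they were DE at some time point, and 2.14% of genes with a biotype were called. JUNB, a subunit of the AP-1 factor, lay between 37.9 and 91.0 CPM at 0 h (median 46.9) and between 41.1 and 135 CPM at 6 h (median 100.1). The ranges overlapped, and JUNB was higher in 7 of 7 animals, with within-animal log2 differences from 0.11 in animal 202 to 1.26 in animal 103 (log2 fold change 0.68 ± 0.14, FDR = 0.00923). The call was lost without animal 107. The other member called was KLF2, which fell and is described with the endothelial genes. FOS, which pairs with JUN proteins in AP-1, had 179.6 ± 91.5 CPM at 0 h and 186 ± 89.9 CPM at 6 h, with 3 animals higher and 4 lower (log2 fold change 0.08 ± 0.22, FDR = 0.927). ATF3, a stress factor of the same structural class, had 103 ± 36.9 CPM at 0 h and 99.1 ± 35.3 CPM at 6 h (log2 fold change 0.00 ± 0.21, FDR = 0.997). PER1, which is both an early gene and a repressor of the circadian clock, passed the FDR but not the fold change, with 219.8 ± 71.0 CPM at 0 h and 278 ± 92.0 CPM at 6 h and a higher level in 7 of 7 animals (log2 fold change 0.34 ± 0.08, FDR = 0.0165).

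Of 30 hypoxia response genes on the list 6 were identified, because they were DE at some time point, and 3 of these were upregulated: BHLHE40, SLC2A3 and ADM. The share upregulated was 0.349% over all genes tested, and 2.14% of the genes with a biotype were called in either direction. BHLHE40 encodes a repressor that hypoxia and the clock both control. BHLHE40 lay between 33.8 and 206 CPM at 0 h (median 87.2) and between 92.0 and 269 CPM at 6 h (median 124). The spread between animals was wide and animal 201 was highest at both time points, yet the level rose within each of the 7 animals (log2 fold change 0.81 ± 0.18, FDR = 0.0120). SLC2A3, the high-affinity glucose transporter GLUT3, lay between 8.90 and 40.4 CPM at 0 h (median 18.9) and between 17.2 and 51.6 CPM at 6 h (median 32.7). Its ranges overlapped as well, with animal 107 highest and animal 103 lowest at both time points, and it was higher at 6 h in 7 of 7 animals (log2 fold change 0.61 ± 0.12, FDR = 0.00712). ADM, the vasodilating peptide adrenomedullin, lay between 16.9 and 23.5 CPM at 0 h (median 19.9) and between 21.96 and 41.8 CPM at 6 h (median 30.4) (log2 fold change 0.63 ± 0.14, FDR = 0.0102). The smallest within-animal difference of ADM was 0.13 in animal 103, whose ADM at 6 h was the lowest of the 7. The call of SLC2A3 was lost without animal 103 or 201, and that of ADM without animal 107 or 202. Other identified members did not pass. EGLN3, an oxygen sensor and itself a hypoxia target, had 200.1 ± 27.9 CPM at 0 h and 172 ± 43.5 CPM at 6 h with 6 of 7 animals lower (log2 fold change -0.26 ± 0.14, FDR = 0.405). HK2, the muscle hexokinase, was higher in 7 of 7 animals (log2 fold change 0.23 ± 0.28, FDR = 0.778). CA9 went from 0.172 ± 0.0616 to 0.334 ± 0.144 CPM, with 6 of 7 animals higher (log2 fold change 0.85 ± 0.29, FDR = 0.134).

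The circadian clock list shared BHLHE40 and PER1 with those above and held 8 identified genes, with 1 upregulated and none downregulated. These 8, too, were identified because they were DE at some time point, and 2.14% of genes with a biotype were called. NPAS2, a partner of the activator BMAL1, passed the FDR but not the fold change, with 201 ± 18.7 CPM at 0 h and 242 ± 23.2 CPM at 6 h, and was higher in 7 of 7 animals (log2 fold change 0.27 ± 0.07, FDR = 0.0363). CLOCK had a log2 fold change of 0.01 ± 0.16 and BHLHE41, the close relative of BHLHE40, one of 0.02 ± 0.11.

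Genes of catecholamine synthesis and storage, which define chromaffin cells and sympathetic neurons, were among the upregulated genes: 3 of the 12 on the list were identified and all 3 were upregulated. Symbols were at hand only for genes that were DE at some time point, so the 3 were selected in part on the outcome. None of the 9 other genes of the list was among the DE genes of 6 h that had a symbol. The shares to set beside them are 0.349% upregulated among all genes tested and 2.14% called among genes with a biotype. PNMT makes adrenaline from noradrenaline and is induced by glucocorticoids. PNMT lay between 0.898 and 4.18 CPM at 0 h (median 1.57) and between 3.93 and 17.6 CPM at 6 h (median 6.87). The ranges met only through animal 104, which was highest at 0 h, and the level rose in 7 of 7 animals, by log2 differences from 0.80 in animal 103 to 4.07 in animal 202 (log2 fold change 1.92 ± 0.29, FDR = 0.000285). TH, the rate-limiting enzyme of the pathway, lay between 0.317 and 0.929 CPM at 0 h (median 0.498) and between 0.675 and 1.46 CPM at 6 h (median 1.13), and it too rose in 7 of 7 animals (log2 fold change 0.998 ± 0.19, FDR = 0.00324). Those levels rest on 188 reads at 0 h and 321 at 6 h over the 7 libraries. PENK, the precursor of the enkephalin peptides stored with catecholamines, lay between 0.139 and 0.485 CPM at 0 h (median 0.294) and between 0.234 and 1.10 CPM at 6 h (median 0.467) and was higher in 6 of 7 animals (log2 fold change 0.99 ± 0.27, FDR = 0.0482). PENK was lower at 6 h in animal 202, the animal with the highest PNMT at 6 h, and its call was lost in 6 of the 7 fits that leave out an animal. Markers of Schwann cells and nerve, of which 5 were identified, were not called. Their part in the result was not tested.

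Of 10 glucocorticoid response genes identified, PNMT and DEPP1 were upregulated and none was downregulated, and the median log2 fold change was 0.05, close to that of all genes. The 10 were at hand because they were DE at some time point, and 2.14% of genes with a biotype were called. DEPP1, a target of FOXO transcription factors, lay between 1.61 and 6.35 CPM at 0 h (median 3.13) and between 3.84 and 14.1 CPM at 6 h (median 4.63) (log2 fold change 0.86 ± 0.23, FDR = 0.0400); its log2 difference was 0.13 in animal 104 to 2.72 in animal 202, and its call was lost in 5 of the 7 fits without an animal. PDK4, a kinase that shuts off pyruvate oxidation in fasting muscle, had 1800.2 ± 1405 CPM at 0 h and 1525 ± 1255 CPM at 6 h (log2 fold change -0.19 ± 0.13, FDR = 0.543). The receptor gene itself, NR3C1, had a log2 fold change of 0.00 ± 0.09.

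CXCL8, the chemokine interleukin 8 that attracts neutrophils, lay between 0.0856 and 0.416 CPM at 0 h (median 0.332) and between 0.339 and 1.44 CPM at 6 h (median 0.633). It was low in all samples, with 92 reads at 0 h and 218 at 6 h in total, and rose in 7 of 7 animals (log2 fold change 1.31 ± 0.27, FDR = 0.00721). The only other NF-κB target identified, the adhesion molecule gene VCAM1, had 10.8 ± 3.36 CPM at 0 h and 11.8 ± 3.35 CPM at 6 h (log2 fold change 0.14 ± 0.12, FDR = 0.670). None of the 4 neutrophil markers identified was called (FCGR3A had a log2 fold change of -0.17 ± 0.20), and their summed level was 3.47 to 7.53 CPM at 0 h and 3.42 to 7.95 CPM at 6 h.

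**Figure D2:**
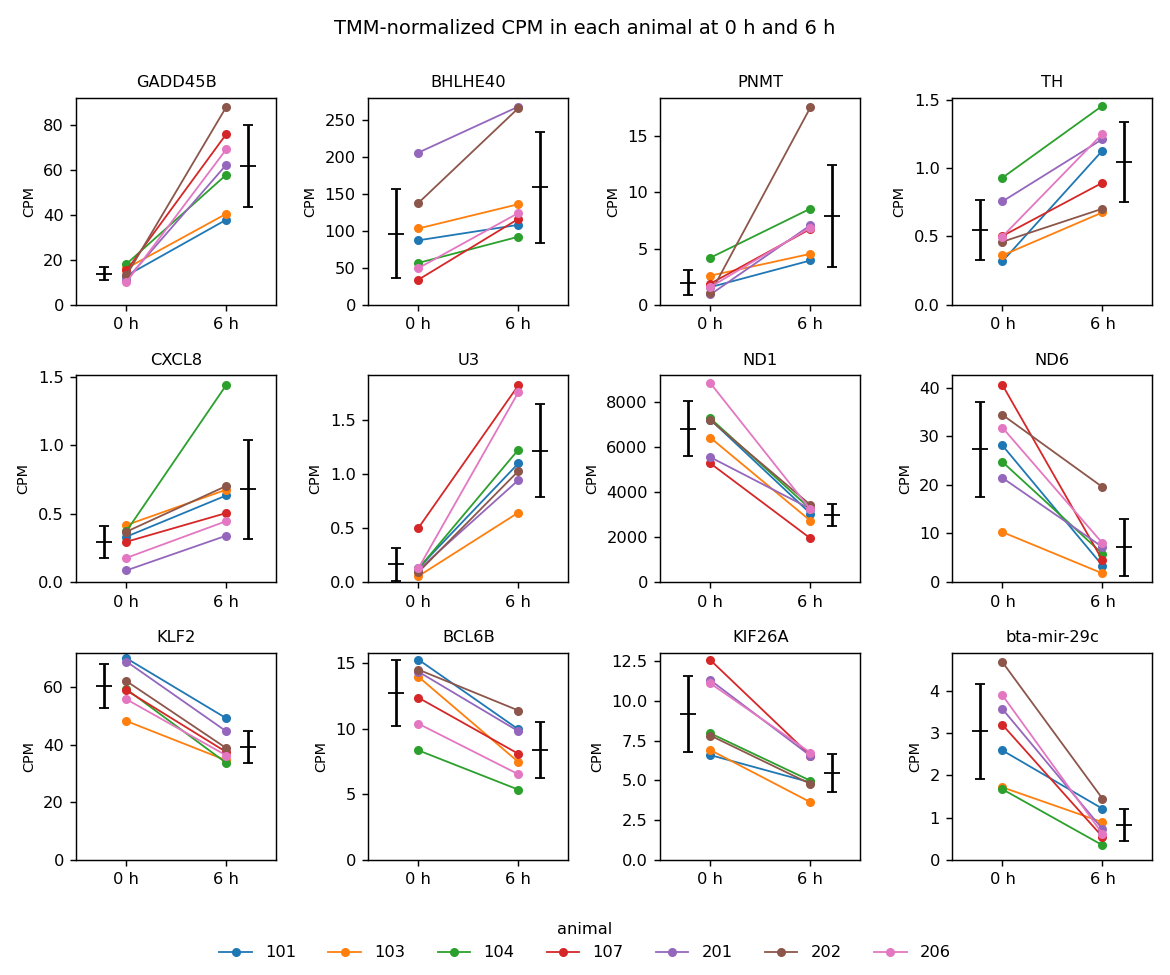
TMM-normalized CPM (y axis) of 12 genes at 0 h and 6 h (x axis), with 1 coloured line per animal and, beside the points, the mean and SD over the 7 animals in black. Each line rises in GADD45B, BHLHE40, PNMT, TH, CXCL8 and U3 and falls in ND1, ND6, KLF2, BCL6B, KIF26A and bta-mir-29c, while the levels of the animals overlap between time points in most panels.

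The remaining upregulated protein coding genes belong to no list. EPS8L2, a regulator of actin of the EPS8 family, changed by a similar amount in each animal: it lay between 1.78 and 3.31 CPM at 0 h (median 2.65) and between 3.03 and 5.62 CPM at 6 h (median 4.56), with log2 differences from 0.56 in animal 201 to 0.88 in animal 206 (log2 fold change 0.77 ± 0.11, FDR = 6.70e-05). CDK5R1, the p35 activator of the kinase CDK5, lay between 0.836 and 2.89 CPM at 0 h (median 1.37) and between 1.49 and 6.21 CPM at 6 h (median 2.04) (log2 fold change 0.76 ± 0.13, FDR = 0.000859). The CDK5R1 ranges overlapped, and animal 107 was highest at both time points. WDR97 lay between 3.38 and 4.96 CPM at 0 h (median 4.42) and between 5.96 and 7.57 CPM at 6 h (median 6.43) without overlap (log2 fold change 0.61 ± 0.11, FDR = 0.00149). RNF207, a RING finger protein known from cardiac muscle, lay between 2.36 and 6.23 CPM at 0 h (median 3.79) and between 4.04 and 9.82 CPM at 6 h (median 6.05) (log2 fold change 0.68 ± 0.13, FDR = 0.00552). WDR97 and RNF207 were not called without animal 107. MAMDC4, annotated as a pseudogene, lay between 1.05 and 1.49 CPM at 0 h (median 1.198) and between 1.66 and 2.42 CPM at 6 h (median 1.80) without overlap (log2 fold change 0.65 ± 0.11, FDR = 0.00116), and its call was lost without animal 101.

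FOXJ1, the master transcription factor of motile cilia, had the largest fitted log2 fold change of the 78 genes, from a very low base. FOXJ1 lay between 0 and 0.0482 CPM at 0 h (median 0) and between 0.0153 and 0.515 CPM at 6 h (median 0.233), with 5 reads at 0 h, where 4 of 7 libraries had none, and 76 reads at 6 h (log2 fold change 4.10 ± 0.69, FDR = 0.000922). It was higher in 7 of 7 animals. Other genes rose on average from a low base, with larger errors. HIST1H2BN, a histone gene of a family whose near-identical members can share reads, went from 0.0649 ± 0.0446 to 0.779 ± 0.897 CPM (log2 fold change 3.52 ± 0.92, FDR = 0.0388). The log2 difference of HIST1H2BN was 0.02 in animal 202, and its call was lost without animal 101, 103, 107 or 201. MFRP, a membrane protein of the retinal pigment epithelium, went from 0.0740 ± 0.0794 to 0.777 ± 0.888 CPM (log2 fold change 2.97 ± 0.70, FDR = 0.0207), with a log2 difference of 6.03 in animal 202. Without animal 107 or 201 the call of MFRP was lost. HAMP, the iron hormone hepcidin of the liver, had 9 reads at 0 h and 45 at 6 h, and its call was lost in 6 of the 7 fits without an animal. PARP3, a poly(ADP-ribose) polymerase of DNA break repair, went from 5.86 ± 2.21 to 14.6 ± 6.05 CPM (log2 fold change 1.23 ± 0.26, FDR = 0.0107), in 7 of 7 animals, but was not called without animal 107 or 201. Among the others, CCDC159 was called in all 7 fits that leave out an animal, while CLGN, COL20A1 and GPR157 were called in at most 1.

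Non-coding genes made up 16 of the 51 upregulated genes when the pseudogene is set aside: 10 snoRNAs, 4 long non-coding RNAs (lncRNAs), 1 ribosomal RNA and 1 signal recognition particle RNA (Metazoa_SRP). snoRNAs guide the chemical modification of ribosomal RNA, by ribose methylation in the SNORD class and by pseudouridylation in the SNORA class, and U3 directs the first cuts of the ribosomal RNA precursor. All of them are short, lack a poly(A) tail and mostly lie in introns of other genes, so that reads counted to them can include unspliced RNA of a host gene. U3 lay between 0.0555 and 0.502 CPM at 0 h (median 0.124) and between 0.644 and 1.82 CPM at 6 h (median 1.10), without overlap, on 62 reads at 0 h and 348 at 6 h (log2 fold change 2.98 ± 0.28, FDR = 2.82e-07). The 0 h level of U3 in animal 107, its highest, still lay below the lowest 6 h level. SNORA57 lay between 0 and 0.194 CPM at 0 h (median 0.0432) and between 0.0936 and 1.18 CPM at 6 h (median 0.815) and rose on average (log2 fold change 3.55 ± 0.51, FDR = 0.000120), although in animal 202 the log2 difference was 0.02. SNORA61, SNORD99 and SNORD104 were each higher in 6 of 7 animals. SNORD33 and SNORA64 were each called in only 2 of the 7 fits without an animal, and Metazoa_SRP, higher in 5 of 7 animals, in 1. Of the 43 snoRNAs with a biotype at hand, 38 had a higher fitted level at 6 h and 5 a lower one, with a median log2 fold change of 0.50. All 43 had been named because they were DE at some time point, so this count is not a sample of all snoRNAs. Of the genes with a biotype 2.14% were called.

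The gene annotated as 5_8S_rRNA, a part of the large ribosomal subunit, was the only cytosolic ribosomal RNA gene with a biotype at hand. It lay between 23.0 and 43.6 CPM at 0 h (median 33.3) and between 61.4 and 324 CPM at 6 h (median 170.2), without overlap (log2 fold change 2.21 ± 0.29, FDR = 3.83e-05), with log2 differences from 1.18 in animal 107 to 3.30 in animal 201. Copies of U3 and of this ribosomal RNA occur many times in the genome, so that reads can be split among them and both values are uncertain in level. A lncRNA without a symbol, ENSBTAG00000052369, rested on 5416 reads at 0 h and 23799 at 6 h. It lay between 7.76 and 25.8 CPM at 0 h (median 14.8) and between 36.8 and 145 CPM at 6 h (median 74.3), without overlap (log2 fold change 2.34 ± 0.23, FDR = 3.82e-07). The median log2 fold change of the 103 lncRNAs with a biotype was 0.08, of which 4 were upregulated and none downregulated, against 2.14% called among all genes with a biotype. These lncRNAs, too, were at hand because they were DE at some time point.

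**Figure D3:**
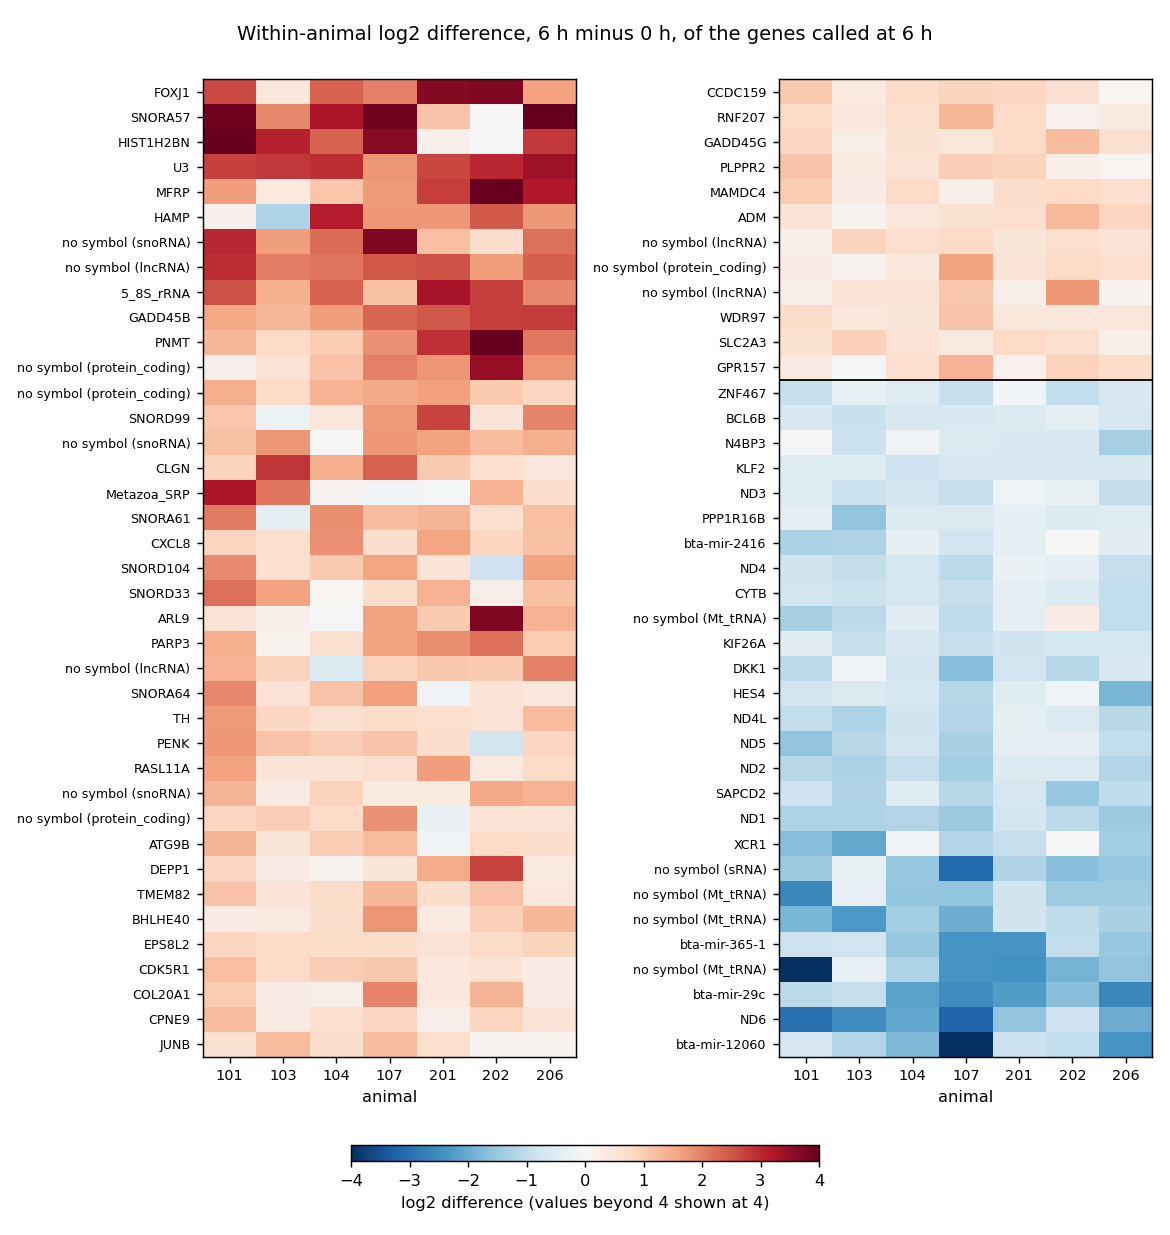
Log2 difference, 6 h minus 0 h, in each animal (columns) for each of the 78 DE genes (rows, ordered by fitted log2 fold change from the top left to the bottom right; a black line separates upregulated from downregulated genes). Red is higher and blue lower at 6 h, and values beyond 4 are drawn at 4. Nearly all cells of a row have the same colour, with exceptions such as HAMP and SNORA61 in animal 103 and PENK and SNORD104 in animal 202.

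The animals took unequal parts in the upregulation. The median log2 difference of the 51 upregulated genes was largest in animal 107 (1.32) and smallest in animal 103 (0.57), and for 16 of the 51 genes animal 103 had the smallest difference of the 7. Between 47 and 51 of these genes were higher at 6 h in any animal. For the 27 downregulated genes the median ran from -1.16 in animal 107 to -0.63 in animal 201, and all 27 were lower in each animal except animal 202, where 24 were.

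The 8 identified mRNAs of the mitochondrial genome were downregulated, against 0.185% of all genes tested. They could be identified because they were DE at some time point, 6 h included, so the count of 8 of 8 is selected on the outcome and is not independent evidence. Of them 7 encode subunits of complex I, the NADH dehydrogenase, and CYTB encodes the cytochrome of complex III. The other 5 protein genes of the mitochondrial genome, COX1, COX2, ATP8, ATP6 and COX3, had no symbol at hand, so their levels are not given. None of the 5 was among the 18 downregulated protein coding genes, all of which had a symbol. Together the 8 summed to between 27900 and 42734 CPM at 0 h and to between 12901 and 25753 CPM at 6 h, and the ratio of the sums, 6 h over 0 h, was lowest in animal 107 (0.451) and highest in animal 201 (0.749). Their median log2 fold change was -0.89.

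ND1 and ND2, the first protein genes in the order of the mitochondrial genome, had the most negative fitted values among those over 100 CPM. ND1 lay between 5288 and 8858 CPM at 0 h (median 7209) and between 1948 and 3437 CPM at 6 h (median 3234), without overlap and lower in 7 of 7 animals (log2 fold change -1.19 ± 0.12, FDR = 3.82e-07). ND2 lay between 2548 and 4513 CPM at 0 h (median 3764) and between 1477 and 2490.4 CPM at 6 h (median 1784), also without overlap (log2 fold change -0.98 ± 0.11, FDR = 3.78e-06). Farther along, ND3 lay between 1604 and 2801 CPM at 0 h (median 2619) and between 852 and 2326 CPM at 6 h (median 1595) (log2 fold change -0.63 ± 0.11, FDR = 0.00149). The ND3 ranges overlapped, and its call was lost without animal 107 or 206. ND4L and ND4 share 1 transcript and overlap on the genome, so that reads over the overlap are uncertain for both. ND4L lay between 671 and 967 CPM at 0 h (median 925) and between 344 and 625 CPM at 6 h (median 474), without overlap (log2 fold change -0.88 ± 0.12, FDR = 4.48e-05). ND4 lay between 6729 and 10079.5 CPM at 0 h (median 8961) and between 3565 and 6861 CPM at 6 h (median 5277) and overlapped through the 6 h sample of animal 202 (log2 fold change -0.72 ± 0.11, FDR = 0.000317). Past these genes, the last on this strand gave the same direction. ND5 lay between 3395 and 4787 CPM at 0 h (median 3621) and between 1224 and 3106 CPM at 6 h (median 2436), without overlap (log2 fold change -0.90 ± 0.14, FDR = 0.000285). CYTB lay between 6198 and 11113 CPM at 0 h (median 9319) and between 3281 and 6888 CPM at 6 h (median 5417) (log2 fold change -0.73 ± 0.10, FDR = 0.000117). In CYTB, as in ND1, ND2, ND3, ND4L, ND4, ND5 and ND6, animal 202 was highest at 6 h. ND6 is the single protein gene read from the opposite strand, and whether reads were assigned by strand bears on its value: the description of the counting is strand specific, while the printed option is not. ND6 lay between 10.3 and 40.5 CPM at 0 h (median 28.1) and between 1.80 and 19.6 CPM at 6 h (median 5.84), and although the ranges overlapped through animals 103 and 202, it fell within all 7 animals, by log2 differences from -3.16 in animal 107 to -0.81 in animal 202 (log2 fold change -2.06 ± 0.24, FDR = 4.37e-06).

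Mitochondrial tRNAs are cut from the same precursors. Of the 5 mitochondrial tRNA genes with a biotype at hand, 4 were downregulated, at a mean of 0.468 to 5.87 CPM at 0 h. A biotype was at hand only for genes DE at some time point, so this count does not describe mitochondrial tRNAs in general. The shares beside it are 0.185% downregulated among all genes tested and 2.14% called among genes with a biotype. One of them, ENSBTAG00000043574, lay between 0.656 and 3.15 CPM at 0 h (median 1.95) and between 0.338 and 1.05 CPM at 6 h (median 0.776) (log2 fold change -1.64 ± 0.25, FDR = 0.000285). The 2 mitochondrial ribosomal RNAs were not called, with a median log2 fold change of -0.18. None of 33 identified nuclear subunits of the respiratory chain was called, 32 of the 33 had a fitted log2 fold change above 0, and their median was 0.11, while 49.5% of all genes tested had a value above 0. The 33, of 77 on the list, were at hand because they were DE at some time point against the same 0 h samples, which can favour 1 sign. NDUFS1, the largest subunit of complex I, was the gene below 0, with 392 ± 46.6 CPM at 0 h and 337 ± 58.5 CPM at 6 h (log2 fold change -0.23 ± 0.11, FDR = 0.343), and COX5B, of complex IV, had 319 ± 27.6 CPM at 0 h and 341 ± 29.0 CPM at 6 h (log2 fold change 0.10 ± 0.06, FDR = 0.506). Of 4 identified genes for mitochondrial transcription and RNA processing none was called: LRPPRC, which stabilizes mitochondrial mRNAs, had 112 ± 11.6 CPM at 0 h and 98.5 ± 10.1 CPM at 6 h (log2 fold change -0.19 ± 0.07, FDR = 0.198), and GRSF1, an RNA granule protein, had 65.8 ± 5.44 CPM at 0 h and 59.8 ± 3.42 CPM at 6 h (log2 fold change -0.14 ± 0.10, FDR = 0.562).

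KLF2, a flow-responsive transcription factor that keeps the endothelium quiescent, lay between 48.2 and 70.0 CPM at 0 h (median 59.3) and between 33.6 and 49.1 CPM at 6 h (median 37.4). The ranges overlapped only slightly, through animal 103 at 0 h and animal 101 at 6 h, and KLF2 fell in 7 of 7 animals by similar amounts, from -0.82 in animal 104 to -0.48 in animal 103 (log2 fold change -0.63 ± 0.11, FDR = 0.00149). BCL6B, a repressor found mainly in endothelial cells, lay between 8.33 and 15.3 CPM at 0 h (median 13.9) and between 5.34 and 11.4 CPM at 6 h (median 8.07) and also fell in 7 of 7 animals (log2 fold change -0.62 ± 0.10, FDR = 0.000285), although it was not called without animal 103. Both are on the list of endothelial markers, of which 4 were identified because they were DE at some time point. Of all genes with a biotype 2.14% were called. The other 2 were not called: ENG, the TGF-β coreceptor endoglin, had 49.1 ± 10.7 CPM at 0 h and 51.3 ± 12.5 CPM at 6 h (log2 fold change 0.05 ± 0.10, FDR = 0.880), and PLVAP, of the capillary diaphragm, had 4.78 ± 0.849 CPM at 0 h and 5.45 ± 1.24 CPM at 6 h (log2 fold change 0.20 ± 0.12, FDR = 0.485). Summed over the 4, endothelial marker levels were 112 to 144 CPM at 0 h and 89.3 to 122 CPM at 6 h. The lower sum came from KLF2 and BCL6B, since the means of ENG and PLVAP were higher at 6 h. The share of endothelial cells in the cores was not tested. PPP1R16B, a phosphatase regulator also enriched in endothelium but on no list, went from 12.7 ± 1.93 to 8.34 ± 2.29 CPM (log2 fold change -0.64 ± 0.14, FDR = 0.0107), lower in 7 of 7 animals, and was not called without animal 103.

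The other downregulated protein coding genes are on no list. KIF26A, an atypical kinesin, lay between 6.59 and 12.6 CPM at 0 h (median 7.96) and between 3.62 and 6.74 CPM at 6 h (median 4.98) and fell in 7 of 7 animals (log2 fold change -0.75 ± 0.13, FDR = 0.00114). HES4, a repressor in the Notch pathway, went from 1.32 ± 0.322 to 0.755 ± 0.266 CPM (log2 fold change -0.83 ± 0.17, FDR = 0.00621), and DKK1, a secreted inhibitor of Wnt signalling, went from 7.07 ± 3.62 to 4.30 ± 3.47 CPM (log2 fold change -0.82 ± 0.21, FDR = 0.0341). DKK1 was lower in 7 of 7 animals but was called in only 2 of the 7 fits without an animal, and HES4 was lost without animal 107. XCR1, the chemokine receptor of cross-presenting dendritic cells, had 124 reads at 0 h and 40 at 6 h (log2 fold change -1.25 ± 0.33, FDR = 0.0399) and was called in only 2 of the fits without an animal. The sRNA ENSBTAG00000049408 lay between 2.16 and 3.10 CPM at 0 h (median 2.49) and between 0.310 and 1.81 CPM at 6 h (median 0.848), without overlap (log2 fold change -1.46 ± 0.23, FDR = 0.000344).

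Of 21 microRNA genes with a biotype, 4 were downregulated and none upregulated, and 16 had a lower fitted level. These 21 were at hand because they were DE at some time point against the same 0 h samples, and 2.14% of all genes so annotated were called at 6 h. In mRNA libraries such counts are reads over the hairpin locus and do not measure the mature microRNA. bta-mir-29c, whose mature form represses collagens and other matrix genes, lay between 1.67 and 4.69 CPM at 0 h (median 3.20) and between 0.344 and 1.45 CPM at 6 h (median 0.727), without overlap and lower in 7 of 7 animals (log2 fold change -1.99 ± 0.30, FDR = 0.000207). bta-mir-12060 lay between 0.288 and 1.04 CPM at 0 h (median 0.360) and between 0 and 0.213 CPM at 6 h (median 0.140) and bta-mir-365-1 lay between 0.124 and 0.499 CPM at 0 h (median 0.321) and between 0 and 0.276 CPM at 6 h (median 0.0848), on 43 and 35 reads at 6 h (log2 fold change -2.14 ± 0.45, FDR = 0.00934, and log2 fold change -1.64 ± 0.38, FDR = 0.0185). Both were lost without animal 107, and bta-mir-365-1 also without animal 201. In the RefSeq gene table, which is of another assembly, MIR12060 lies within ALDOA, MIR365-1 within LOC100849865, MIR2416 within MACF1 and KIAA0754, and MIR29C within no other gene. bta-mir-2416 was called in 3 of the 7 fits without an animal.

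Contractile, metabolic and protective gene groups of muscle showed no called member. Their identified genes were few and were at hand because they were DE at some time point. Of all genes with a biotype 2.14% were called, so a lack of calls among so few genes says little about a group. None of the 12 sarcomere genes was DE, with a median log2 fold change of 0.14: TPM2, a tropomyosin, had 12282 ± 1404 CPM at 0 h and 13755 ± 2970.2 CPM at 6 h (log2 fold change 0.14 ± 0.08, FDR = 0.387), and TNNT3, the fast troponin T, had 11508 ± 933 CPM at 0 h and 13407 ± 1046 CPM at 6 h (log2 fold change 0.22 ± 0.09, FDR = 0.197). Nor was any of 6 genes of glycolysis and glycogen (median 0.01), where ENO3, the muscle enolase, had 5558 ± 726 CPM at 0 h and 5885 ± 669 CPM at 6 h (log2 fold change 0.08 ± 0.07, FDR = 0.665), and PGAM2 one of 0.10 ± 0.07. Among 7 heat shock genes the largest difference was that of HSPA1A, the inducible HSP70, which had 1974 ± 1329 CPM at 0 h and 2849 ± 1947 CPM at 6 h, with 6 of 7 animals higher and a spread between animals larger than the difference (log2 fold change 0.51 ± 0.21, FDR = 0.231). HSPB6, a small heat shock protein, had 1453 ± 242 CPM at 0 h and 1596 ± 319.7 CPM at 6 h (log2 fold change 0.13 ± 0.07, FDR = 0.374). All 7 heat shock genes had a fitted log2 fold change above 0, against 49.5% of all genes tested. Of 5 genes of the unfolded protein response none was called. VLDLR and SEL1L had log2 fold changes of -0.02 ± 0.13 and -0.02 ± 0.07, and DDIT3, a proapoptotic factor of that response, had 7.17 ± 1.16 CPM at 0 h and 10.4 ± 3.53 CPM at 6 h (log2 fold change 0.47 ± 0.15, FDR = 0.104). Among 5 ubiquitin ligases and regulators of muscle loss, none of them called, MUSTN1 had a log2 fold change of 0.13 ± 0.12 and FBXO32, known as atrogin, had 173 ± 48.6 CPM at 0 h and 163 ± 21.97 CPM at 6 h (log2 fold change -0.06 ± 0.16, FDR = 0.915). No gene of the calpain, cathepsin and caspase list had a symbol at hand, so levels of these proteases, known for meat tenderization, are not given. None was among the DE genes of 6 h that had a symbol.

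Markers of other cell types gave no call apart from the endothelial pair. These markers, too, were at hand because they were DE at some time point, and 2.14% of genes with a biotype were called. The 18 adipocyte genes had a median log2 fold change of -0.21, with animal medians from -2.23 to 1.86, and SCD, the stearoyl-CoA desaturase, had 557 ± 258 CPM at 0 h and 610.2 ± 728 CPM at 6 h (log2 fold change -0.21 ± 0.31, FDR = 0.834), and FASN, the fatty acid synthase, had a log2 fold change of -0.21 ± 0.35. These genes differed between cores of an animal in both directions. The 9 macrophage genes had a median of -0.12 (CSF1R -0.22 ± 0.18, MRC1 -0.12 ± 0.24) and the 16 T and NK cell genes one of 0.17 (CD3E 0.03 ± 0.18, ZAP70 0.41 ± 0.13). The 4 fibroblast genes had a median of 0.11 (COL6A3 0.11 ± 0.12, FN1 0.15 ± 0.14) and the 6 smooth muscle and pericyte genes one of 0.03 (ABCC9 -0.02 ± 0.15, TAGLN 0.05 ± 0.13). Neither fibre type gave a call: the 4 slow fibre genes had a median of 0.10 (TNNT1 0.18 ± 0.14, ATP2A2 -0.52 ± 0.30) and the 4 fast fibre genes one of 0.17 (TNNC2 0.12 ± 0.08). B cell, erythroid and satellite cell markers, 2 identified genes each, were not called, with CD79A at 0.34 ± 0.34 and CD79B at 0.82 ± 0.44 for B cells. HBB and HBA, the globins of red cells, together stayed under 5 CPM in each sample. Satellite cell markers NCAM1 and MYOD1 had log2 fold changes of 0.26 ± 0.14 and -0.01 ± 0.09.

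The DE genes of 6 h took different courses afterwards. The later comparisons share the 0 h samples with the present one, so their values are set side by side and are not independent of it. At 6, 24, 48 and 72 h, in this order, the log2 fold changes against 0 h of GADD45B were 2.14, 2.04, 2.35 and 2.59, and those of PNMT were 1.92, 1.65, 2.09 and 2.58. JUNB had 0.68, 0.94, 1.21 and 1.32, a larger value at each later time. CXCL8, by contrast, had its largest value at 6 h, with 1.31, 0.96, 0.93 and 0.93. CDK5R1 ended on the other side of 0, with 0.76, 0.52, 0.61 and -0.16. Several downregulated genes had values nearer 0 at 72 h than at 6 h: KLF2 had -0.63, -0.44, -0.44 and -0.21, BCL6B -0.62, -0.32, -0.29 and -0.11 and KIF26A -0.75, -0.55, -0.36 and -0.13. ND1 had -1.19, -1.14, -0.82 and -0.56 and ND4 had -0.72, -0.60, -0.29 and 0.01. Of the microRNA loci, bta-mir-29c had -1.99, -2.13, -1.67 and -0.97, whereas bta-mir-365-1 had -1.64, -1.23, -2.28 and -3.27. The differences between these time points were not tested here.

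**Figure D4:**
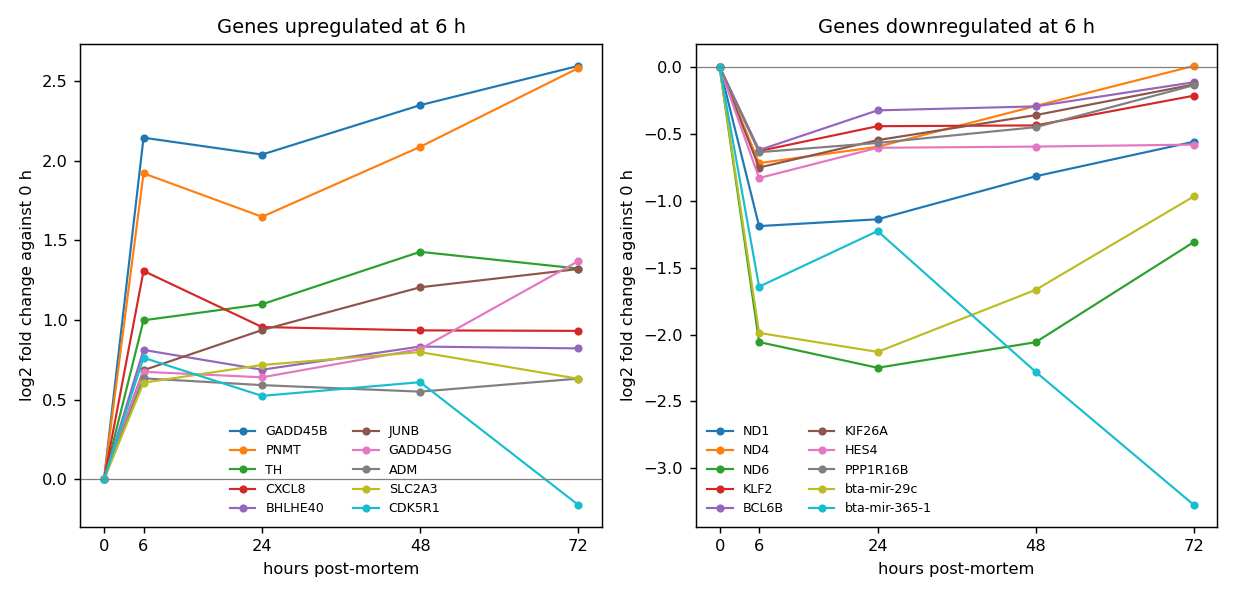
Log2 fold change against 0 h (y axis) at 6, 24, 48 and 72 h (x axis, hours) for 10 genes upregulated at 6 h (left) and 10 downregulated at 6 h (right), from the fit over all 35 samples; the value at 0 h is 0 by construction. GADD45B and PNMT lie highest on the left throughout, and on the right ND4, KLF2, BCL6B and KIF26A end between -0.21 and 0.01 at 72 h while bta-mir-365-1 ends at -3.27.

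The calls differed in how many animals they rested on. In 28 of the 78 genes, 14 in each direction, the call was made in all 7 fits that leave out an animal. Among the upregulated genes these were GADD45B, PNMT, TH, BHLHE40, CXCL8, EPS8L2, CDK5R1, FOXJ1, CCDC159, U3, SNORA57, 5_8S_rRNA, the lncRNA ENSBTAG00000052369 and a snoRNA without a symbol. Among the downregulated genes they were ND1, ND2, ND4L, ND4, ND5, ND6, CYTB, KLF2, KIF26A, bta-mir-29c, 3 mitochondrial tRNAs and the sRNA. No gene changed direction in any fit. FOXJ1 and SNORA57 had few reads at 0 h and entered the test through their levels at other time points. The filters on low counts kept FOXJ1 in 9 of 12 alternative settings of the fit and SNORA57 in 11.

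**Figure D5:**
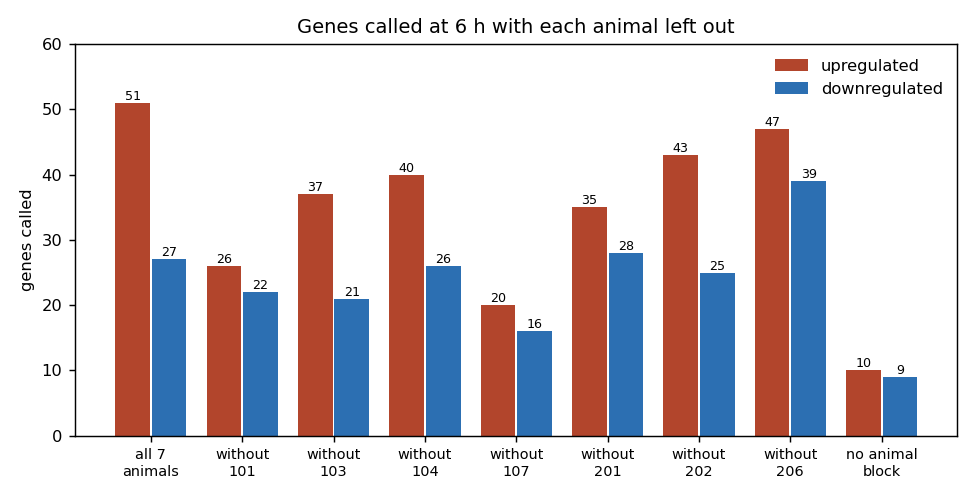
Number of upregulated (red) and downregulated (blue) genes at 6 h, as bars from 0 with the count above each, with all 7 animals, with each animal left out in turn and without the animal block. Counts are lowest without animal 107 among the fits with the block (20 and 16) and fall to 10 and 9 without the block.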

How the data were processed

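Per the labels and the study's methods, the authors trimmed reads with Trimmomatic (version 0.39), mapped them to ARS-UCD1.2 with STAR (version 2.7.0f), counted them per Ensembl gene with featureCounts (version 1.6.4), and deposited raw counts, unfiltered and not normalized. In edgeR (version 4.0.16, R 4.3.3), filterByExpr with time point as group (minimum count 10) kept 14630 genes, TMM factors were computed (0.967 to 1.11 in the 14 samples of 0 h and 6 h), and a model with animal as a block and time point was fitted to all 35 samples, with the quasi-likelihood test and Benjamini-Hochberg adjustment. Standard errors are the log2 fold change divided by the root of its F statistic, and log2 values of single samples use a prior of 2. The pairing comes from the animal number, since all cores of an animal were cut from 1 carcass, and each 0 h sample correlated best with the 6 h sample of its own animal (7 of 7).

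Gene symbols (3106) and biotypes (3640) came from the annotation columns of the study's supplementary gene table, which is limited to genes that were DE in at least 1 comparison and was shortened in the copy used. Gene lists count only those members, and no list was tested. The 78 DE genes are 2.14% of the 3640. The study's own fold changes and p-values, RNA integrity values and the animals' ages were not used here.

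Any DE gene could be named. Ranges were given for the 12 upregulated and 12 downregulated genes with a symbol and the smallest FDR and for DE members of 29 gene lists, and levels or fold changes for the 2 identified members of a list with the highest mean CPM, of which some are not reported here. ATF3, HK2, CA9, CLOCK, BHLHE41, NR3C1, DDIT3, PLVAP and ZMAT3, and the ranges of 2 microRNAs and of genes without a symbol, were chosen after their values were seen. The comparison, the lists and the tests were chosen with earlier results of these data known. On simulated counts for this comparison (14577 genes), the fit recovered 95 of 100 genes changed by 2-fold and 98 of 100 changed by 3-fold, and called 5 unchanged genes. In the simulation 200 genes picked at random changed, at 6 h alone, with noise drawn from the fitted spread. Changes at the later time points were left out, so these rates need not hold for the real counts. Alternatives included DESeq2 (version 1.42.0) and limma voom (version 3.58.1).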

Additional observations from a re-analysis of the deposited data

Results flagged for a closer look

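In 6 of 64 groups of 7 samples (32 genes at 2 time points), 1 sample lay far from the others by Dixon's test, a rule that chance meets in about 1 of 20 groups. At 0 h, U3 in animal 107 was 0.502 CPM, against 0.130 CPM in the next highest animal, and ND2 in animal 201 was 2548 CPM, against 3697 CPM in the next lowest. At 6 h, PNMT in animal 202 was 17.6 CPM (next 8.56 CPM) and ND6 in the same animal was 19.6 CPM (next 8.02 CPM). CDK5R1 in animal 107 was 6.21 CPM at 6 h (next 2.71 CPM), and CXCL8 in animal 104 was 1.44 CPM at 6 h (next 0.702 CPM). All 6 genes were called in each of the 7 fits that leave out an animal. The sample of animal 202 at 6 h had the lowest total count of the 14, 20864347.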

How the results depend on the processing

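No DE gene changed direction under any alternative. Against 51 upregulated and 27 downregulated genes, edgeR's likelihood ratio test gave 63 and 34, limma voom 50 and 28, DESeq2 61 and 32, other normalization factors and filters 36 to 52 and 21 to 30, and filterByExpr with the full design, added after seeing the data, 50 and 29. Larger moves came with no replicate block (10 and 9), the glmTreat test against a fold change of 1.5 (8 and 5) and a fold change above 2 (25 and 11); thinning to the smallest library left 30 upregulated. By FDR alone 187 genes were higher (1.28%) and 131 lower (0.895%), and these counts moved to 13 and 10 with no replicate block, to 338 and 211 by DESeq2, to 332 and 306 in the fit of the 14 samples, to 112 higher without a filter, to 78 lower with library sizes only and to 73 lower when thinned; the causes were not tested. Leaving out each animal gave 20 to 47 upregulated and 16 to 39 downregulated genes, and by FDR alone 45 to 291 higher and 39 to 183 lower: without animals 101, 103, 104, 107, 201, 202 and 206 in turn, 51, 89, 103, 45, 105, 126 and 291 were higher and 49, 58, 72, 39, 78, 90 and 183 lower. The log2 ratio of total counts ran from -0.41 to -0.08 in these fits. With no replicate block 19 of the 78 calls were kept, and without animal 107 36 were. Genes under 1 CPM are limited by depth. The p-values of the main fit rest on the spread left between cores of these 7 animals after the animal block takes up each animal's own level. That spread was estimated over all 35 samples.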

Other observations

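Cytosolic ribosomal protein genes, identified by their symbols after their values were seen, moved little but to the same side. Of 61 gene identifiers, 61 had a fitted log2 fold change above 0 (0.15 to 0.45, median 0.21), 23 passed an FDR of 0.05 in edgeR's quasi-likelihood test, all higher, and none passed the fold change of 1.5. In those 23 the log2 fold change was 0.18 to 0.28. Over all genes tested 49.5% had a fitted value above 0, and 1.28% were higher by the FDR alone. RPS12 went from 228 ± 15.4 to 263 ± 13.1 CPM (SD, n = 7) and RPL12 from 158 ± 19.2 to 189 ± 24.7 CPM. Ribosomal protein genes have many processed pseudogenes that can take reads. The 61 were at hand because they were DE at some time point against the same 0 h samples, which can favour 1 sign.

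In all, 240 genes passed the FDR but not the fold change, 136 higher and 104 lower, and 80 of them had a symbol. The 3 named ones with the smallest FDR were chosen after their values were seen. STARD3, a cholesterol transporter of late endosomes, went from 16.4 ± 1.76 to 21.7 ± 1.55 CPM (log2 fold change 0.40 ± 0.05, FDR = 7.60e-06), higher in 7 of 7 animals. SCARF1, a scavenger receptor, went from 68.4 ± 20.5 to 97.4 ± 36.5 CPM (log2 fold change 0.48 ± 0.06, FDR = 3.83e-05). CAD, the enzyme that starts pyrimidine synthesis, went from 15.6 ± 1.92 to 21.1 ± 3.01 CPM (log2 fold change 0.44 ± 0.06, FDR = 4.48e-05). How many genes pass the FDR alone depended strongly on the animals in the fit, with 45 higher and 39 lower without animal 107 and 291 higher and 183 lower without animal 206.

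Animals also differed in how many genes moved at all. Of 12167 genes with at least 1 CPM, between 2.15% (animal 104) and 5.42% (animal 206) differed by more than 1.5-fold between the 2 cores of an animal, in either direction. Animal 206 had more such genes higher (3.797%) than lower (1.62%), whereas animal 107 had more lower (2.89%) than higher (1.61%). Over the 14 samples, adipocyte marker genes, which depend on how much fat a core holds, summed to between 430.4 and 4926 CPM at 6 h and to between 679.8 and 2325 CPM at 0 h.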
